A study of Mus musculus with 30 samples.

Results

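Vascular endothelial cells can be told apart from other cells by a small set of surface, junction and secreted proteins, and 10 genes that encode such proteins are described here: Cdh5, Pecam1, Tie1, Flt1, Eng, Esam, Emcn, Cldn5, Ramp2 and Egfl7. They were chosen by name, with earlier results of these data known. All 10 were found among the 14685 genes of the deposited expression table, and all 10 passed the filter on low values. RNA was sequenced from mouse embryonic stem cells (ESC) of the E14 line and from 4 populations derived from them in vitro, with 2 samples in each of 15 groups and 30 samples in all. The 3 genotypes were wild type (WT), Sp1ΔDBD/ΔDBD cells, named Sp1_deltaDBD in the labels, in which the DNA-binding domain of the transcription factor Sp1 is deleted, and Sp3-/- cells, named Sp3KO in the labels, which lack its relative Sp3. ESC were maintained on mouse embryonic fibroblast feeders, and were grown without feeders for 2 passages before differentiation. Flk1+ cells (haemangioblast-stage cells that carry the VEGF receptor Flk1) were taken with magnetic beads from embryoid bodies. Per the study's methods, the time in embryoid bodies depended on the cell line, and the day of each Flk1+ sample is not known here. The time of harvest may therefore differ between genotypes in Flk1+ cells. The other 3 populations, HE1, HE2 and progenitors, came from flow sorting of blast cultures 2 days after Flk1+ cells were seeded. HE1 (haemogenic endothelium) was gated as KIT+ CD41- Tie2+, HE2 as KIT+ CD41+ Tie2+ and progenitors as KIT+ CD41+ Tie2-. Tie2 is itself an endothelial receptor, so the gates separate HE1 and HE2 from progenitors by a protein of the same class as those described here. Each mutant was 1 ESC line, so a mutation and the history of its line cannot be told apart.

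Blood cells of the embryo arise from mesoderm through haemogenic endothelium, a specialised endothelium whose cells lose their junctions and round up as they acquire a blood programme. Endothelial identity genes are therefore switched on between mesoderm and haemogenic endothelium and switched off again as haematopoietic progenitors form. Many of them are controlled by ETS family factors such as Etv2, Erg and Fli1, while Sp1 and Sp3 bind GC boxes, which are common in the promoters of genes active in every cell.

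Promoter sequences are shown first because both mutations concern factors that bind promoters. RefSeq promoter windows (GRCm38.p6) were found for 6 of the 10 genes, and not for Cdh5, Pecam1, Esam and Ramp2. For the 5 genes with a single listed start, the 250 bases before the start are given 5′ to 3′ on the gene's strand. Capitals mark the GC box core GGGCGG and the ETS cores CGGAAG and AGGAAG, each on either strand.
Emcn (chr3:137340828-137341077, + strand): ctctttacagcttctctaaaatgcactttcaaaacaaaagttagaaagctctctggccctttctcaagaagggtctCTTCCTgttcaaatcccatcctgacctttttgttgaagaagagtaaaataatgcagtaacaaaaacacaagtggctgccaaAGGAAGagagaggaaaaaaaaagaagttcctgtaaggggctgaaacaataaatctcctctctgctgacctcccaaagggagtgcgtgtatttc
Tie1 (chr4:118489850-118490099, - strand): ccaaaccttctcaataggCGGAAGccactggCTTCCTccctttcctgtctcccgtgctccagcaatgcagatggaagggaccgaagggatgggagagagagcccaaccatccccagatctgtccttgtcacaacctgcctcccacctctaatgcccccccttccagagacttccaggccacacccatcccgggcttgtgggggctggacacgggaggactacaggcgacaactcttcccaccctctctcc
Eng (chr2:32646345-32646594, + strand): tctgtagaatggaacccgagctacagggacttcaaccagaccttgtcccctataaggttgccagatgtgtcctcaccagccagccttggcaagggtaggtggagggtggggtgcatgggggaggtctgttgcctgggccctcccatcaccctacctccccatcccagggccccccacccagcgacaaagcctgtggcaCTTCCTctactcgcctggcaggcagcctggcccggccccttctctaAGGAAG
Flt1 (chr5:147726012-147726261, - strand): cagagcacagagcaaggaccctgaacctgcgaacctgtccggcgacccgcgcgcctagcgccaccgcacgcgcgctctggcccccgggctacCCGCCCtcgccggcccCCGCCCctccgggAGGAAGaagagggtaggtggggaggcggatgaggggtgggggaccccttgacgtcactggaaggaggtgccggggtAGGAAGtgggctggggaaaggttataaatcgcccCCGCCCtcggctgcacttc
Cldn5 (chr16:18776597-18776846, + strand): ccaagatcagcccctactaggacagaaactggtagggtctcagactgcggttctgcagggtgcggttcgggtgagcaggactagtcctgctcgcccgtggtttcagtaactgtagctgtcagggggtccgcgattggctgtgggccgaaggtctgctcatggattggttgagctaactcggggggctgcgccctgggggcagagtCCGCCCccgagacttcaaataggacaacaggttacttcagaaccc

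The windows of Emcn, Tie1 and Eng held no GC box core and 2 ETS cores each. That of Flt1 held 3 GC box cores and 2 ETS cores, and that of Cldn5 held 1 GC box core and no ETS core. Egfl7 has 3 listed starts, and 4 GC box cores lay before the third start alone, while 3 ETS cores lay before the first start and 1 before the second. Of all 32851 promoter windows, 32.7% held a GC box core and 39.2% an ETS core. The word CACCC was found in 52.0% of them and, among the members, 4 times before Eng, 2 times before Tie1, Cldn5 and the second start of Egfl7, and 1 time before Flt1. The word AGATAA, which factors of the Gata family bind, was found in 9.99% of windows and in none of the 8 windows of the members. Matches were counted on both strands, overlapping matches of different words were each counted, and a match is a match of letters only.

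The values are FPKM, fragments scaled to transcript length and to the sequencing total, so they can be compared between genes of different length. The authors had quantile normalised them over all samples, the median of a sample was 7.19 FPKM, and the read depth behind each value is unknown. Differences are on the scale of log2(FPKM + 0.1), which understates changes of low genes. Tests are limma with Benjamini-Hochberg adjustment over the 14525 genes tested, and a gene is called at an adjusted p under 0.05. The p-values and SE rest on a spread between replicates that is pooled, for each gene, over the 15 groups of 2 biological replicates. They thus do not measure the spread of the compared samples alone. For 1 gene alone, the smallest two-sided p of an exact permutation test between groups of 2 is 0.333. Sp3 differed by -2.40 to -3.32 on the log2 scale in the 5 Sp3-/- populations, each called. Sp1 fell in Flk1+, HE2 and progenitor cells of the Sp1ΔDBD/ΔDBD line, by 0.63, 0.56 and 0.76, and differed by -0.38 in ESC and -0.10 in HE1 without passing the test. Since only part of Sp1 is deleted, its level does not check these labels fully.

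In WT cells, all 10 genes were highest in HE1 and second highest in HE2. The order of the other 3 populations differed between genes, with progenitors above Flk1+ cells and these above ESC for 4, progenitors above ESC and these above Flk1+ cells for 3, Flk1+ cells above progenitors and these above ESC for 2, and ESC above progenitors and these above Flk1+ cells for 1. Their medians of group means were 0.881 FPKM in ESC, 1.94 in Flk1+ cells, 163 in HE1, 86.8 in HE2 and 11.1 in progenitors. The plot of each gene by sample shows these levels in the 3 genotypes.

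**Figure D1:**
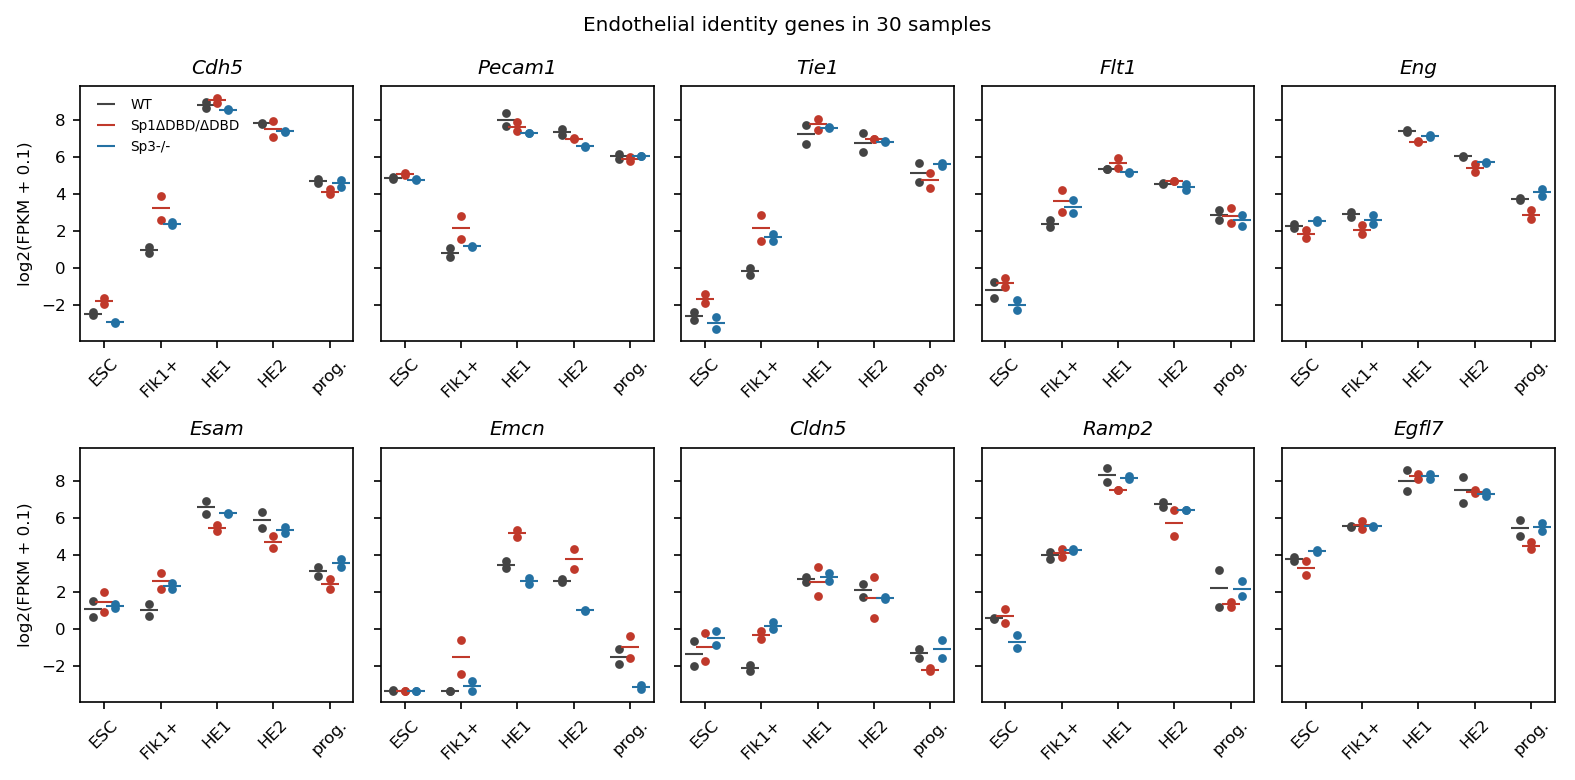
Values of the 10 endothelial identity genes in the 30 samples, as log2(FPKM + 0.1) on the y axis, by population on the x axis (prog., progenitor) and genotype (colours). Points are samples and bars the mean of the 2 samples. Every gene is highest in HE1 and next highest in HE2 in all 3 genotypes. Pecam1 is above 26 FPKM in ESC, unlike the others.

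Among the junction and adhesion genes, Cdh5 (chr8:104101625-104144511), which encodes VE-cadherin of endothelial adherens junctions, was the most abundant member in HE1. It was listed at 0.0702 and 0.0896 FPKM in the 2 WT ESC samples, 1.62 and 2.09 in Flk1+ cells, 402 and 501 in HE1. In HE2 it stood at 221 and 232 FPKM, and in progenitors at 28.2 and 24.3. No 2 WT populations overlapped for Cdh5. Cdh5 was called at each of the 4 successive steps, with differences of 3.43, 7.86, -0.99 and -3.11 on the log2 scale. Eng and Ramp2 were also called at each step. The calls of Cdh5 and Ramp2 from HE1 to HE2 depended on single samples.

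Pecam1 (chr11:106654217-106750628), which encodes the adhesion molecule CD31 that is also present on ESC, was high in ESC. It stood at 28.2 and 30.2 FPKM in WT ESC and at 1.39 and 1.99 in Flk1+ cells, a fall of 4.05 on the log2 scale, and then at 202 and 331 in HE1. HE2 had 145 and 179 FPKM of Pecam1, and progenitors 59.2 and 71.2. It was the most abundant member in ESC and in progenitors. Over the 15 group means, its correlation with the mean of the other 9 members was 0.64 (Pearson), against 0.86 to 0.98 for the rest. These means share libraries, and the value is a description.

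Esam (chr9:37528078-37538319), an adhesion molecule of endothelial cells and early blood cells, was at 1.48 and 2.82 FPKM in WT ESC and 2.49 and 1.55 in Flk1+ cells, which overlapped. It reached 76.3 and 125 in HE1. Cldn5 (chr16:18776847-18778262), a claudin of endothelial tight junctions, was the least abundant member in HE1, at 7.14 and 5.83 FPKM, and was at 0.160 and 0.110 in Flk1+ cells. Emcn (chr3:137341067-137432185), which encodes the sialomucin endomucin, was listed at 0 in both WT Flk1+ samples and stood at 9.89 and 12.7 FPKM in HE1. HE2 had 5.75 and 6.48 FPKM of Emcn, and progenitors 0.373 and 0.169.

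Of the receptors, Tie1 (chr4:118471191-118490061), the orphan partner of Tie2, was at 0.0431 and 0.0885 FPKM in WT ESC, 0.664 and 0.912 in Flk1+ cells, and 104 and 211 in HE1. Flt1 (chr5:147561604-147726011), a VEGF receptor that restrains VEGF signalling, was at 0.492 and 0.220 FPKM in ESC, 5.80 and 4.48 in Flk1+ cells, and 41.1 in both HE1 samples. Eng (chr2:32646595-32682669), a co-receptor for BMP9 and TGF-beta, was at 5.12 and 4.27 FPKM in ESC, 8.13 and 6.63 in Flk1+ cells, and 164 and 173 in HE1. Its fall to 64.4 and 65.7 in HE2, a difference of -1.37, was the change with the smallest adjusted p (0.00015) of any member at that step.

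Ramp2 (chr11:101246028-101259546), which makes the calcitonin receptor-like receptor bind adrenomedullin, was already at 18.3 and 13.9 FPKM in WT Flk1+ cells and at 255 and 421 in HE1. It was the one member lower in WT progenitors than in Flk1+ cells by the test, with a difference of -1.79, and its progenitor samples lay apart, at 9.02 and 2.24. Without the second progenitor sample that call was lost (adjusted p = 0.18). Egfl7 (chr2:26580014-26593120), a secreted protein of the vessel wall that also hosts the microRNA miR-126, was the member most abundant in Flk1+ cells, at 47.0 and 47.7 FPKM, and was at 177 and 390 in HE1.

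By count, 6 members rose from WT ESC to Flk1+ cells, where 27.4% of all genes tested rose, and 1, Pecam1, fell, where 24.7% fell. Esam, Emcn and Cldn5 did not pass the test. All 10 rose from Flk1+ cells to HE1, against 23.5% of all genes. From HE1 to HE2, Cdh5, Eng and Ramp2 fell, by 0.99, 1.37 and 1.60 (10.2% of all genes fell), and the other 7 did not pass the test. Without 1 sample the differences were -0.83 to -1.15 for Cdh5, -1.33 to -1.41 for Eng and -1.235 to -1.96 for Ramp2. The Cdh5 call was lost in each of these refits and the Ramp2 call in all but that without the first HE1 sample, while that of Eng was kept. With culture as a random block, in which HE1, HE2 and progenitor samples of the same number share a block, 5 were called, Pecam1 and Flt1 in addition. All 10 fell from HE2 to progenitors, with differences of -1.31 (Pecam1) to -4.55 (Ramp2), against 7.78% of all genes. Progenitors were nevertheless above ESC for 9 members (30.3% of all genes were higher), all but Cldn5. They were above Flk1+ cells for 6 and below for 1 (23.1% of all genes in each direction), while Flt1, Cldn5 and Egfl7 did not pass the test.

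The first question asked of the mutants was whether these genes were at the WT level in ESC. None of the 10 was called in Sp1ΔDBD/ΔDBD ESC, where 6.06% of all genes were called in either direction, or in Sp3-/- ESC, where 11.3% were. At an unadjusted p under 0.05 the counts were 1 and 2. Pecam1, the abundant member, was at 34.3 and 32.1 FPKM in Sp1ΔDBD/ΔDBD and 28.3 and 26.4 in Sp3-/- ESC. Its differences from WT were 0.19 (95% confidence interval -0.40 to 0.77) and -0.10 (-0.68 to 0.49). The widest difference was that of Ramp2 in Sp3-/- ESC, -1.26 with an adjusted p of 0.10, from samples at 0.697 and 0.399 against 1.38 and 1.43 in WT.

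Of the 14 calls against WT over all populations, 10 were in Flk1+ cells, where most of the called genes were higher than in WT before the haemogenic endothelium stage. In Sp1ΔDBD/ΔDBD Flk1+ cells, Cdh5, Pecam1, Tie1, Esam and Emcn were called higher, while 2.92% of all genes were. Eng was called lower, as 2.62% of all genes were. In Sp3-/- Flk1+ cells, Cdh5, Tie1, Esam and Cldn5 were called higher, against 6.69% of all genes, and none was called lower. The median difference of the 10 was 1.46 in Sp1ΔDBD/ΔDBD and 0.64 in Sp3-/- cells, where that of all genes was 0.02 and 0.00. Both comparisons share the 2 WT samples. In bulk RNA, more cells of an endothelial type and more RNA per cell cannot be told apart. Nor can a mutation and a possible difference in the time of harvest, since the day of each Flk1+ sample is not known here. In the paper's Flk1 staining, WT and both mutants were taken on the same day of embryoid body culture.

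Cdh5 was at 5.84 and 14.8 FPKM in Sp1ΔDBD/ΔDBD and at 5.42 and 4.85 in Sp3-/- Flk1+ cells, against 1.62 and 2.09 in WT. Every mutant sample was above both WT samples. The differences were 2.28 ± 0.30 (SE, adjusted p = 0.00011) and 1.43 ± 0.30 (adjusted p = 0.0049). Even the highest of these values was far below the 369 to 591 FPKM of the mutants' HE1 samples.

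Tie1 was at 2.62 and 7.21 FPKM in Sp1ΔDBD/ΔDBD and at 3.51 and 2.66 in Sp3-/- Flk1+ cells, against 0.664 and 0.912 in WT, with no overlap. Its differences were 2.34 ± 0.45 (adjusted p = 0.0036) and 1.84 ± 0.45 (adjusted p = 0.012). Esam was at 4.50 and 8.22 in Sp1ΔDBD/ΔDBD and 5.58 and 4.46 in Sp3-/- cells, again above both WT samples, with differences of 1.58 and 1.3. The Sp3-/- call for Esam was close to the threshold (adjusted p = 0.039).

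Pecam1 was at 2.82 and 6.75 FPKM in Sp1ΔDBD/ΔDBD Flk1+ cells, a difference of 1.34 from WT (adjusted p = 0.0065). In Sp3-/- cells it was at 2.06 and 2.20, a difference of 0.34 that did not pass (95% confidence interval -0.25 to 0.92). Cldn5 was at 1.22 and 0.894 in Sp3-/- cells, above the WT values of 0.160 and 0.110, with a difference of 2.29. In Sp1ΔDBD/ΔDBD cells it was at 0.603 and 0.836 and its difference of 1.80 did not pass (adjusted p = 0.12). With a pseudocount of 1 in place of 0.1, the call for Cldn5 was lost.

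Emcn was listed at 0 in both WT Flk1+ samples and at 0.0877 and 0.571 FPKM in Sp1ΔDBD/ΔDBD, so no fold is given. Its call was lost with a pseudocount of 1. Flt1 was at 8.0 and 18.7 FPKM in Sp1ΔDBD/ΔDBD and 7.74 and 12.5 in Sp3-/- Flk1+ cells, all above the WT samples, but its differences of 1.25 and 0.94 did not pass (adjusted p = 0.064 and 0.12).

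Eng, Ramp2 and Egfl7 were not called higher in either mutant. Eng was at 3.47 and 4.81 FPKM in Sp1ΔDBD/ΔDBD Flk1+ cells, below the 8.13 and 6.63 of WT, and fell by 0.83 (adjusted p = 0.022), whereas Sp3-/- cells overlapped WT at 4.98 and 7.08. Ramp2 and Egfl7, the members already abundant in WT Flk1+ cells, differed from WT by 0.02 to 0.28 in the mutants, and Egfl7 overlapped in both. The interval for Egfl7 in Sp3-/- cells ran from -0.78 to 0.82 on the log2 scale.

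The second Sp1ΔDBD/ΔDBD Flk1+ sample was above the first for all 10 members, with a median difference of 1.03 on the log2 scale against 0.01 over all genes. Without it, 2 members were called against WT in place of 6. There were 2 without the first WT sample and 3 without the second. In Sp3-/- Flk1+ cells, where 4 were called, there were 0 without the first WT sample or the first mutant sample, 1 without the second WT sample and 2 without the second mutant sample. Cdh5 in Sp1ΔDBD/ΔDBD cells was called in each of these refits, with differences of 1.61 to 2.94. With Flk1+ cells fitted alone, all 6 Sp1ΔDBD/ΔDBD calls were lost, that of Cdh5 among them (adjusted p = 0.077). The 1 member called there in Sp1ΔDBD/ΔDBD cells was not called in the main fit. In Sp3-/- cells Cldn5 alone was called.

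Marker lists of other cell types were summed beside these results, and their part in them was not tested. In Flk1+ cells, 7 pluripotency markers summed to 164 and 126 FPKM in WT, 241 and 85.5 in Sp1ΔDBD/ΔDBD and 491 and 450 in Sp3-/- cells, and 3 of the 7 were called higher in Sp3-/- cells. The 8 mesenchymal and smooth muscle markers summed to 30.5 and 33.2 in WT and to 15.1 to 17.7 in the mutants, with none called and Acta2, Col3a1 and Postn below 1 FPKM in every group. The 10 haematopoietic markers summed to 15.5 and 19.1 in WT, 17.6 and 32.1 in Sp1ΔDBD/ΔDBD and 9.82 and 13.5 in Sp3-/- cells, where Ikzf1 was called lower. Gfi1, Ptprc and Vav1 were below 1 FPKM throughout. The 8 erythroid markers summed to 4.33 to 13.6 over all Flk1+ samples, with Klf1, Hbb-y, Hba-x and Hba-a1 below 1 FPKM, and Gata1 and Hbb-bh1 were called lower in Sp3-/- cells. Kdr, which encodes Flk1 itself, was at 165 to 257 FPKM in all 6 samples, with overlapping genotypes.

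**Figure D2:**
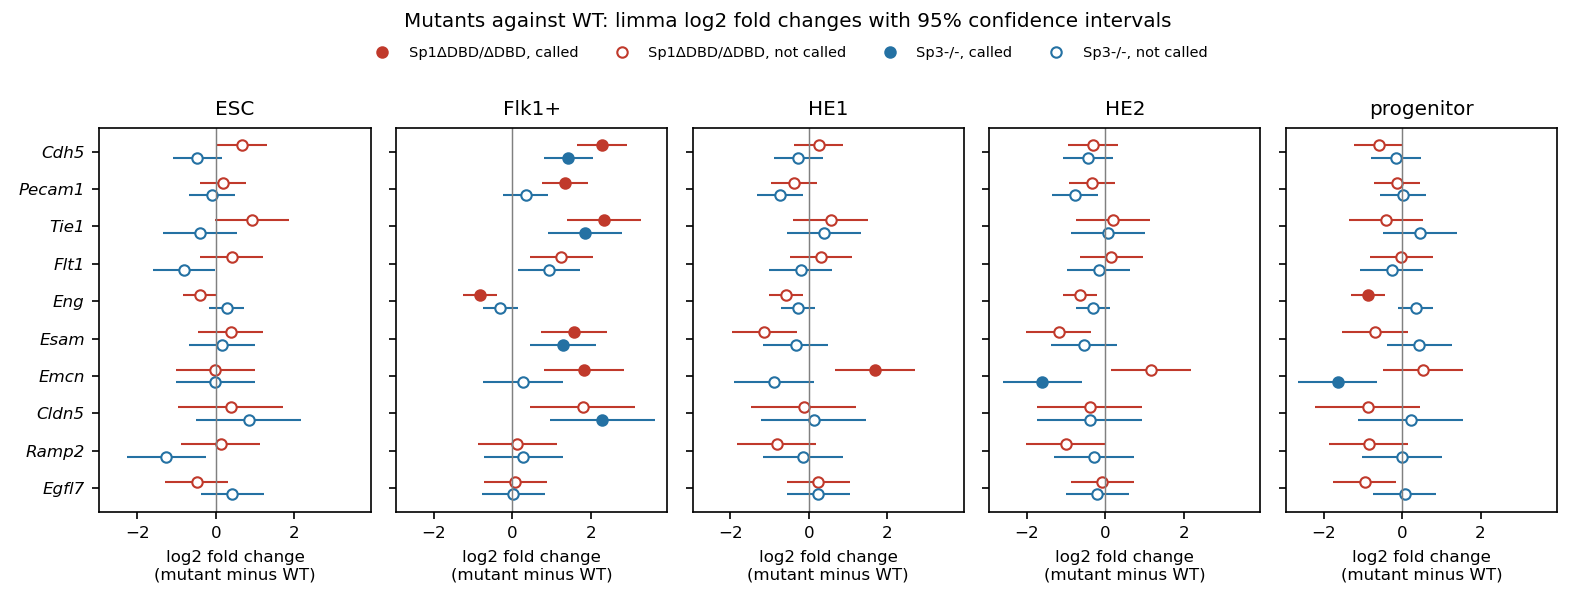
Difference of each mutant from WT for the 10 genes in each population, as limma log2 fold change on the x axis with 95% confidence intervals. Filled points passed the adjusted p of 0.05. In Flk1+ cells most members lie to the right of 0 in both mutants, and Eng to the left. Emcn lies on opposite sides for the 2 mutants in HE1 and HE2. Its position in Flk1+ cells depends on the pseudocount, as it was listed at 0 in WT.

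In HE1, where the genes reach their peak, fewer members were called. In Sp1ΔDBD/ΔDBD HE1, Emcn was called higher, against 5.69% of all genes, and no member was called lower. In Sp3-/- HE1 none was called, where 10.9% of all genes were called in either direction, and 1 member, Pecam1, had an unadjusted p under 0.05. Cdh5 was at 480 and 591 FPKM in Sp1ΔDBD/ΔDBD and 378 and 369 in Sp3-/- HE1, against 402 and 501 in WT. The median differences of the 10 were 0.05 and -0.24, against 0.02 and 0.05 over all genes.

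Emcn was the exception. It was at 41.5 and 31.6 FPKM in Sp1ΔDBD/ΔDBD HE1, above the 9.89 and 12.7 of WT, and rose by 1.68 ± 0.48 (adjusted p = 0.033). In Sp3-/- HE1 it was at 6.70 and 5.39, below both WT samples, with a difference of -0.89 that did not pass (adjusted p = 0.26). The call in Sp1ΔDBD/ΔDBD cells was lost in each refit without 1 of the 4 samples (adjusted p up to 0.19) and after correcting for GC content and transcript length (adjusted p = 0.058).

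Esam was at 49.2 and 40.2 FPKM in Sp1ΔDBD/ΔDBD HE1 against 76.3 and 125 in WT, with a difference of -1.13 and an adjusted p of 0.080. Eng was at 111 and 115 against 164 and 173, with a difference of -0.58 and an adjusted p of 0.087. Neither overlapped WT, and neither passed the test. Ramp2 was at 188 and 182 against 255 and 421.

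In HE2, none of the 10 was called in Sp1ΔDBD/ΔDBD cells, where 9.67% of all genes were, and 3 (Eng, Esam and Emcn) had an unadjusted p under 0.05. In Sp3-/- HE2, Emcn was called lower, against 6.84% of all genes. It was at 2.0 and 1.88 FPKM against 5.75 and 6.48 in WT, and fell by 1.61 ± 0.48 (adjusted p = 0.033). In Sp1ΔDBD/ΔDBD HE2, Emcn was at 20.2 and 9.42, both above WT, with a difference of 1.16 that did not pass (adjusted p = 0.14). The Sp3-/- call was lost without any 1 of the 4 samples (adjusted p up to 0.15), after correcting for GC content and transcript length (adjusted p = 0.062) and with HE2 fitted alone (adjusted p = 0.12). Of the differences in HE2, 9 of 10 were below 0 in Sp3-/- cells, with a median of -0.36 against 0.03 over all genes.

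Pecam1 and Ramp2 lie on chromosome 11, whose 1205 genes tested had a median difference of -0.12 to -0.34 in the 5 Sp1ΔDBD/ΔDBD populations and of -0.12 to -0.27 in Sp3-/- cells. The medians of the other chromosomes lay between -0.03 and 0.17 in Sp1ΔDBD/ΔDBD cells and between -0.18 and 0.15 in Sp3-/- cells. Pecam1 was at 154 and 158 FPKM in Sp3-/- HE1 and 97.8 and 91.3 in HE2, below both WT samples each time. Its differences were -0.73 and -0.77, and neither passed (adjusted p = 0.10 and 0.072). The part of the chromosome in these values was not tested beyond a fit with each chromosome centred, in which neither was called.

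Other cell types were also summed in these gates. In HE1 the mesenchymal list was at 1954 and 388 FPKM in WT, 1097 and 262 in Sp1ΔDBD/ΔDBD and 231 and 152 in Sp3-/- cells. The first WT sample thus held more of these markers than the second, and in HE2 the WT samples were at 495 and 79.5. All members but Flt1 and Cldn5 were lower in that first sample in both gates. In Sp1ΔDBD/ΔDBD HE2 the mesenchymal list was also higher in the first sample, at 409 and 43.4 FPKM. There, 2 of the 10 members were higher in the second sample, and in Sp1ΔDBD/ΔDBD HE1 6 were. Haematopoietic markers summed to 9.98 and 7.99 in WT HE1 and to 27.3 and 23.6 in Sp3-/- HE1, where 5 of the 10 were called higher. Of all genes, 10.9% were called there in either direction. Spi1, Ptprc and Coro1a were below 1 FPKM in both. Erythroid markers summed to 109 and 44.2 in WT, 22.3 and 12.1 in Sp1ΔDBD/ΔDBD and 95.2 and 98.6 in Sp3-/- HE1. Tek, which encodes the Tie2 of the gates, was at 136 and 205 in WT and 141 to 234 in mutant HE1. The part of these cells in the members' values was not tested.

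In progenitors, Eng was called lower in Sp1ΔDBD/ΔDBD cells, against 5.04% of all genes, and Emcn in Sp3-/- cells, against 4.77%. Eng was at 6.14 and 8.50 FPKM against 12.8 and 13.7 in WT, and fell by 0.86 ± 0.21 (adjusted p = 0.014). The call was lost without either WT sample or without the first mutant sample. Emcn was at 0.0234 and 0.00572 FPKM in Sp3-/- cells against 0.373 and 0.169 in WT, all of them low, and its call was lost with a pseudocount of 1, and without the first WT sample or either mutant sample. Cdh5 overlapped WT in Sp3-/- progenitors, at 20.9 and 26.4 FPKM, and lay below in Sp1ΔDBD/ΔDBD progenitors, at 18.9 and 15.7 (difference -0.60, adjusted p = 0.25). The erythroid markers summed to 13750 and 4593 FPKM in WT, 9848 and 7606 in Sp1ΔDBD/ΔDBD and 1589 and 3572 in Sp3-/- progenitors, and Hbb-y was called lower in the last. The haematopoietic markers summed to 281 and 372 in WT, 206 and 311 in Sp1ΔDBD/ΔDBD and 247 and 230 in Sp3-/- progenitors, where Ptprc and Coro1a were called lower. The part of these cells in the values of Eng and Emcn was not tested.

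The mutants were also compared with each other. Emcn was lower in Sp3-/- than in Sp1ΔDBD/ΔDBD cells at the 3 later stages (HE1, HE2 and progenitors), by 2.57 ± 0.48 (adjusted p = 0.0016), 2.77 ± 0.48 (adjusted p = 0.00084) and 2.17 ± 0.48 (adjusted p = 0.0064). The Sp3-/- samples were below both Sp1ΔDBD/ΔDBD samples each time. No other member was called in these 2 haemogenic endothelium gates, where 13.6% (HE1) and 15.9% (HE2) of all genes differed. The HE1 and HE2 calls held without any 1 sample, with differences of -2.22 to -3.32, and under each alternative tried for this comparison. The correction for GC content and length and the chromosome centring were not run between the mutants. The progenitor call was lost with a pseudocount of 1, with progenitors fitted alone, and without the first Sp1ΔDBD/ΔDBD sample or the second Sp3-/- sample.

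Eng differed in the other direction in progenitors, where it was at 14.5 and 19.4 FPKM in Sp3-/- cells, 1.21 ± 0.21 above Sp1ΔDBD/ΔDBD cells (adjusted p = 0.00099), in a comparison in which 11.6% of all genes were called. Eng was also 0.68 higher in Sp3-/- than in Sp1ΔDBD/ΔDBD ESC, at 6.01 and 5.38 against 4.10 and 3.02, and Cdh5 was 1.14 lower on values below 0.3 FPKM. Both ESC calls were lost with a pseudocount of 1, without the second Sp1ΔDBD/ΔDBD sample and without either Sp3-/- sample, and that of Eng (adjusted p = 0.046) also with no trend, with culture as a random block and with ESC fitted alone. The progenitor call of Eng was lost with progenitors fitted alone (adjusted p = 0.086). Between the mutants in ESC, 9.67% of all genes were called. In Flk1+ cells, Pecam1 was the one member called, lower in Sp3-/- cells with a difference of -1.0, where 7.39% of all genes were called. That call was lost without the second Sp1ΔDBD/ΔDBD sample or without either Sp3-/- sample. For Cdh5 and Tie1 the mutants differed by -0.85 (95% confidence interval -1.48 to -0.21) and -0.50 (-1.44 to 0.45) in Flk1+ cells, neither of which passed.

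The effect of a mutation on a step was tested as the mutant's step minus that of WT. From Flk1+ cells to HE1, the rise was smaller in Sp1ΔDBD/ΔDBD than in WT cells for Cdh5 (-2.03 ± 0.43, adjusted p = 0.019), Pecam1 (-1.72 ± 0.39, adjusted p = 0.034) and Esam (-2.71 ± 0.57, adjusted p = 0.018), against 1.53% of all genes called in either direction. In Sp3-/- cells it was smaller for Cdh5 (-1.70 ± 0.43, adjusted p = 0.031), against 4.02%. In HE1 itself, the differences of these genes from WT were 0.25, -0.38 and -1.13 in Sp1ΔDBD/ΔDBD cells and -0.27 for Cdh5 in Sp3-/- cells, none of which passed. From ESC to Flk1+ cells the rise of Cdh5 was larger in Sp3-/- than in WT cells (1.90 ± 0.43, adjusted p = 0.029), against 1.48%. Its ESC values, 0.0702 and 0.0896 FPKM in WT and 0.0325 and 0.0279 in Sp3-/- cells, were below the pseudocount of 0.1. That call was lost with a pseudocount of 1 (adjusted p = 0.11) and without any 1 of its samples, with differences of 1.72 to 2.07. In Sp1ΔDBD/ΔDBD cells no member was called at that step, against 1.74%, though 5 had an unadjusted p under 0.05. From HE1 to HE2 no member was called in either mutant, and none of all genes in Sp3-/- cells (0%) and 0.00688% in Sp1ΔDBD/ΔDBD cells. From HE2 to progenitors none was called, where 0.0207% and 0.0275% of all genes were. At those last 2 steps, 1 member in 1 mutant, Eng in Sp3-/- cells from HE2 to progenitors, had an unadjusted p under 0.05.

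Other endothelial genes were read from 3 lists, together 55 genes of which 54 were tested. These lists too were chosen with earlier results of these data known. In ESC, 8 of the 54 were called higher and 2 lower in Sp1ΔDBD/ΔDBD cells, and 4 higher and 4 lower in Sp3-/- cells. Of all genes, 6.06% and 11.3% were called there in either direction. In Flk1+ cells, 18 of the 54 were called higher in Sp1ΔDBD/ΔDBD and 18 in Sp3-/- cells, and 0 and 1 (Arhgap29) lower, against the same 2.92% and 6.69% of all genes called higher. These calls rest on the same Flk1+ samples as those of the members, and their dependence on single samples is not given here. The 25 other surface and junction genes held 11 and 8 of the higher calls among 24 tested. Icam2, an adhesion molecule of endothelial cells, led both, with 3.25 and 3.02 FPKM in Sp1ΔDBD/ΔDBD, 2.48 and 2.35 in Sp3-/- and 0.259 and 0.280 in WT cells. Its differences were 3.13 (adjusted p = 1.4e-06) and 2.77 (adjusted p = 1.4e-05). Rasip1, needed for vessel lumens, was 1.45 and 1.63 higher.

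Of the 16 endothelial transcription factors, 6 were called higher in Sp1ΔDBD/ΔDBD and 7 in Sp3-/- Flk1+ cells, and none lower. The ETS factor Fli1 was at 12.1 and 13.5 FPKM in Sp1ΔDBD/ΔDBD and 10.6 and 8.73 in Sp3-/- cells against 4.90 and 4.07 in WT. Sox18 was at 2.93 and 2.5, and at 4.82 and 4.55, against 0.474 and 0.541, differences of 2.21 and 2.98. Etv2, the ETS factor that starts the endothelial programme, was at 96.1 and 90.2 in Sp3-/- cells against 31.4 and 17.0 in WT (difference 2.01, adjusted p = 0.0075), and was at 43.6 and 25.7 in Sp1ΔDBD/ΔDBD cells, which overlapped WT. Erg was called higher in Sp1ΔDBD/ΔDBD Flk1+ cells, by 1.84. In ESC, 5 of the 16 were called higher in Sp1ΔDBD/ΔDBD cells and 1, Gata2, in Sp3-/- cells. Those of smallest adjusted p in Sp1ΔDBD/ΔDBD ESC were Fli1, Lmo2 and Elk3, higher by 1.92, 1.26 and 1.11. Fli1 and Lmo2 were below 1 FPKM in WT and Sp1ΔDBD/ΔDBD ESC.

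Among the 14 genes of VEGF, angiopoietin and neuropilin signalling, 1 and 3 were called higher in Flk1+ cells. Tek was at 4.14 and 8.94 FPKM in Sp1ΔDBD/ΔDBD and 3.31 in both Sp3-/- samples against 1.22 and 1.29 in WT, differences of 2.19 and 1.33. None of the 11 receptors, Smads and targets around Eng was called in Sp1ΔDBD/ΔDBD Flk1+ cells, and Id1 alone was called in Sp3-/- cells, 1.38 higher. In HE2 the sign of the list medians was the other way, with 2 higher and 5 lower of the 54 in Sp1ΔDBD/ΔDBD cells (median -0.31) and 2 higher and 7 lower in Sp3-/- cells (median -0.49). Of all genes, 9.67% were called in either direction in the first of these comparisons and 6.84% were called lower in the second, so the counts in HE2 are not read as particular to the lists.

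**Figure D3:**
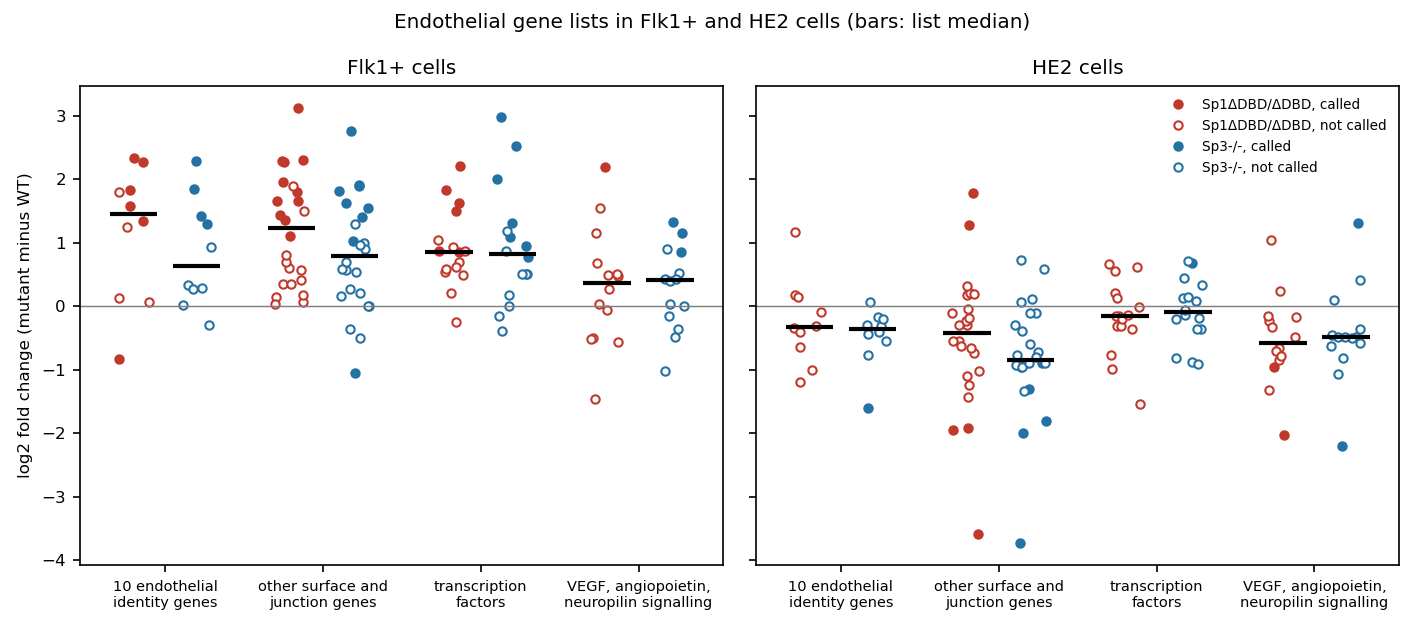
Difference from WT (log2 fold change on the y axis) of the 10 genes and of 3 further endothelial lists, in Flk1+ cells (left) and HE2 (right). Each point is a gene, filled where the adjusted p was under 0.05, and bars are list medians. In Flk1+ cells the 8 medians lie above 0, from 0.37 to 1.46, and in HE2 all 8 lie below 0.

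The genes outside the set whose group means most resembled the mean Z score of the 10 members over the 15 groups were Ecscr, Arhgap31, Oit3, Cd93, Gdpd5 and Ralb, with Pearson correlations of 0.996, 0.994, 0.991, 0.988, 0.984 and 0.983. Their highest group means, all in HE1, were 26.7 FPKM (Gdpd5) to 194 FPKM (Oit3). The likeness is a description over groups that share the same 2 gates and libraries.

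The members did not spread alike between replicates. In WT, replicate 2 was above replicate 1 for 8 of 10 in HE1, 9 in HE2 and 7 in progenitors, with differences from -1.96 (Ramp2 in progenitors, 9.02 and 2.24 FPKM) to 1.40 (Egfl7 in HE2, 114 and 301 FPKM) on the log2 scale. In Sp3-/- HE1 and HE2 the 10 members differed between replicates by -0.46 to 0.33 only. In Sp1ΔDBD/ΔDBD HE2 they differed by -2.20 (Cldn5, 6.91 and 1.43 FPKM) to 0.04.

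**Figure D4:**
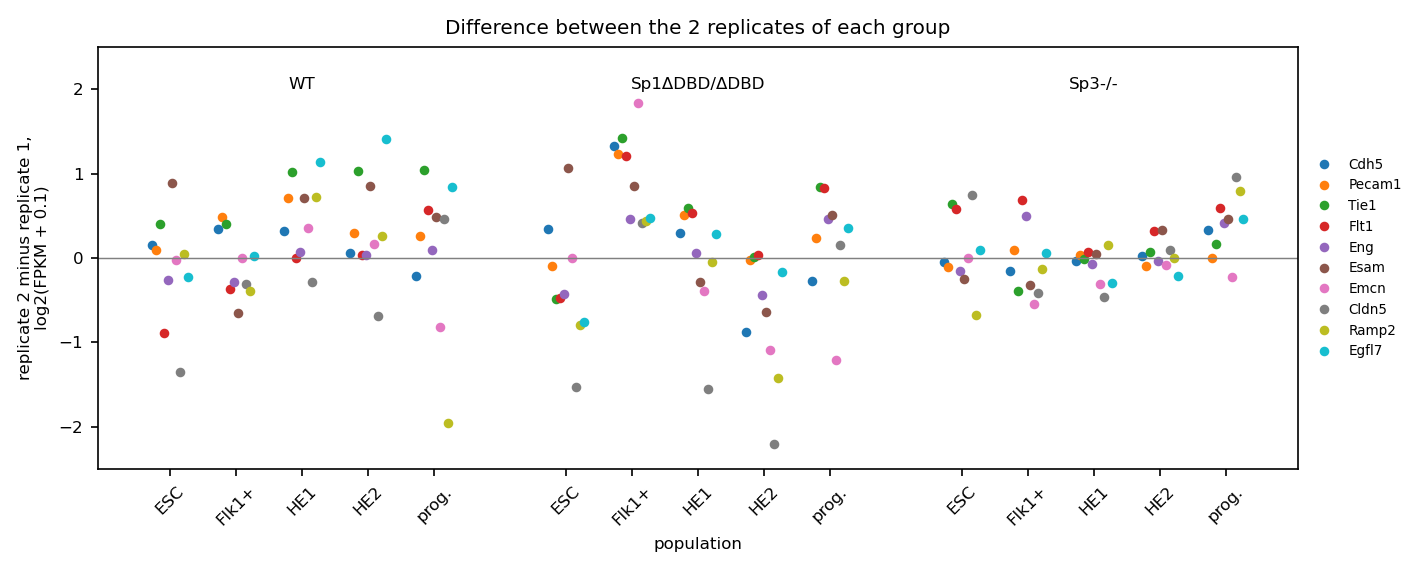
Replicate 2 minus replicate 1 of each gene in each of the 15 groups, in log2(FPKM + 0.1), by population (x axis; prog., progenitor) and genotype. Points are genes. All 10 lie above 0 in Sp1ΔDBD/ΔDBD Flk1+ cells, and the Sp3-/- HE1 and HE2 points lie closest to 0.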

How the data were processed

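RNA from 30 samples in 15 groups, 5 populations by 3 genotypes with 2 biological replicates each, was sequenced. Per the labels and the study's methods, the authors aligned reads with HISAT2 2.1.0, estimated expression with StringTie 1.3.3 and deposited quantile-normalised FPKM values. The table gives no counts, so the depth of each sample is unknown and no counting interval is given. Samples were grouped from their labels.

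Genes were tested if at least 1 sample reached 1 FPKM (14525 of 14685). limma 3.58.1 in R 4.3.3, with an intensity trend, was fitted to log2(FPKM + 0.1) over all 15 groups together, leaving 15 residual degrees of freedom. P-values were adjusted by Benjamini-Hochberg over all genes tested within a comparison. The procedure was tested on simulated data. Alternatives were a pseudocount of 1, other filters, no trend, a replicate block, culture as a random block, a correction for GC content and length, chromosome centring, each population alone, and each sample left out. Gene positions and promoters are from mouse annotation of GRCm38.

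The 10 genes and the marker lists were chosen with earlier results of these data known. Named were all members, up to 3 called genes of smallest adjusted p in each wider list and comparison, and the 6 genes whose group means correlated best with the members' mean Z score. Arhgap29 was named after its values were seen. No sample was left out. No matched reads or protein levels were used.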

Additional observations from a re-analysis of the deposited data

Results flagged for a closer look

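In 5 cases the effect of a mutation differed between 2 stages by the test of that difference itself (limma, adjusted over all genes tested). For Cdh5 the step from Flk1+ cells to HE1 differed from the WT step by -2.03 in Sp1ΔDBD/ΔDBD cells (SE 0.43, adjusted p = 0.019) and by -1.70 in Sp3-/- cells (SE 0.43, adjusted p = 0.031). For Pecam1 it differed by -1.72 in Sp1ΔDBD/ΔDBD cells, and for Esam by -2.71. For Cdh5 the step from ESC to Flk1+ cells differed by 1.90 in Sp3-/- cells (SE 0.43, adjusted p = 0.029). Each group holds 2 samples, and all 3 Sp1ΔDBD/ΔDBD values include the Flk1+ group whose samples lay apart for every member. Both Sp3-/- values are of Cdh5 and share the same Flk1+ samples. No call among the 5 was kept in every refit without 1 sample. The Sp3-/- differences were then -1.52 to -1.87 from Flk1+ cells to HE1 and 1.72 to 2.07 from ESC to Flk1+ cells. That of the ESC step rests on ESC values below 0.1 FPKM, and its call was lost with a pseudocount of 1.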

How the results depend on the processing

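No difference of a member changed its sign past the threshold under any alternative. Of the 14 calls against WT, 14 were kept with no filter, with a filter of 3 FPKM on the highest group mean, with culture as a random block and with chromosome centring, 13 with no trend, 11 after correcting for GC content and transcript length, 10 with a pseudocount of 1, and 2 with each population fitted alone. With each population alone, Sp1ΔDBD/ΔDBD had 1 call in Flk1+ cells, of a member not called in the main fit, and 0 in progenitors. Sp3-/- had 1 in Flk1+ cells, 0 in HE2 and 0 in progenitors. The mutants then differed from each other in 1 member in ESC, 0 in Flk1+ cells and 0 in progenitors. With a pseudocount of 1, Sp1ΔDBD/ΔDBD had 2 calls in HE1 and 3 in HE2, Sp3-/- had 2 in Flk1+ cells, 1 in HE1, 2 in HE2 and 0 in progenitors, the mutants differed in 0 in ESC and 1 in progenitors, and the step from ESC to Flk1+ cells gave 1 call in Sp1ΔDBD/ΔDBD and 0 in Sp3-/-. Correcting for GC content and transcript length gave 0 calls in HE1 and 1 in HE2 of Sp1ΔDBD/ΔDBD cells, chromosome centring gave 1 in that HE2, and no trend gave 1 between the mutants in ESC. Culture as a random block gave 2 calls between the mutants in Flk1+ cells and 5 from WT HE1 to HE2. The cause of these shifts was not tested.

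The replicate block kept all 14 calls against WT and added 5. It gave 2 calls in HE1 and 1 in HE2 of Sp1ΔDBD/ΔDBD, 1 in HE1 and 2 in HE2 of Sp3-/-, and 4 between the mutants in ESC, and together with that correction 1 in ESC, 0 in HE1 and 1 in HE2 of Sp1ΔDBD/ΔDBD and 1 in HE1 and 2 in HE2 of Sp3-/-. Same-numbered samples of WT and Sp1ΔDBD/ΔDBD correlated at 0.222 to 0.455 in their deviations and those of WT and Sp3-/- at 0.00473 to 0.193. The labels do not say that a number marks a shared culture or day, and each comparison holds only 2 pairs, so pairing was neither assumed nor excluded by these values.

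Leaving out 1 sample at a time leaves a lone sample that is assumed to vary like the other groups. The calls of Sp1ΔDBD/ΔDBD against WT then ranged from 2 to 6 in Flk1+ cells, from 0 to 0 in HE1, from 0 to 2 in HE2 and from 0 to 1 in progenitors. Those of Sp3-/- ranged from 0 to 2 in Flk1+ cells, 0 to 0 in HE2 and 0 to 1 in progenitors. Calls between the mutants ranged from 0 to 2 in ESC, 0 to 3 in Flk1+ cells and 1 to 2 in progenitors, and those from WT HE1 to HE2 from 1 to 3. Calls of a mutant's effect on a step ranged from 0 to 3 in Sp1ΔDBD/ΔDBD from ESC to Flk1+ cells, 0 to 3 from Flk1+ cells to HE1, and 0 to 0 at both steps in Sp3-/-. The read depth is unknown, so its part in the precision cannot be given.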

Other observations

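Lyve1, a hyaluronan receptor of lymphatic and early embryonic endothelium, was the gene of the wider endothelial lists with the widest fall in HE2. It stood at 47.3 and 33.2 FPKM in WT, 3.59 and 2.88 in Sp1ΔDBD/ΔDBD and 2.78 and 2.99 in Sp3-/- HE2, falls of 3.58 and 3.74 on the log2 scale (limma, adjusted p = 4.6e-07 and 1.3e-06). Lyve1 was also lower in both mutants in HE1, by 2.24 and 2.44.

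Gja5, a connexin of arterial endothelium, was at 2.94 and 1.95 FPKM in WT HE1, at 0.00094 and 0.0025 in Sp1ΔDBD/ΔDBD HE1 and at 0.0944 and 0.326 in Sp3-/- HE1. The mutant comparisons share the same WT samples.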
